A study of Mus musculus with 63 samples.

Results

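The gp130 cytokines are small secreted proteins that signal through a shared receptor subunit. 9 genes of this pathway were followed across mouse entorhino-hippocampal tissue cultures, chosen by name out of the 55291 gene symbols counted: the ligands Cntf and Lif, the receptor subunits Cntfr, Lifr, Osmr, Il6ra and Il6st, the transcription factor Stat3 and its feedback inhibitor Socs3. All 9 were present in the count tables. 8 of the 9 passed the filter on low counts in each comparison, and Cntf passed it in 1 comparison alone.

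Il6st encodes gp130 itself, the chain that pairs with a ligand-specific partner (Lifr, Osmr, or a complex that includes Il6ra or Cntfr) when a ligand binds. The receptor-bound JAK kinases then phosphorylate STAT3, which enters the nucleus and switches on target genes, among them Socs3, whose product blocks further signalling. In the injured brain the pathway is best known for its role in reactive astrocytes, which express Gfap and Vim, and ciliary neurotrophic factor (Cntf) and leukemia inhibitory factor (Lif) are known as injury-responsive glial cytokines.

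Cultures were prepared from mice of either sex at postnatal days 3 to 5 and matured for at least 18 days. Wildtype cultures (Synpo+/+) came from C57BL/6J mice and synaptopodin-deficient cultures (Synpo-/-) from the B6.129-Synpotm1Mndl/Dllr line, in which the actin-associated spine protein synaptopodin is targeted in every cell. In the entorhinal cortex lesion (ECL), a scalpel cut severed the perforant path, which denervates the hippocampus in part, and tissue was taken 3 days later. The regional experiment holds 39 libraries, each from a single dissected dentate gyrus (DG) or CA3 area. It comprised 2 control and 3 ECL libraries of CA3 Synpo+/+, 6 and 6 of CA3 Synpo-/-, 4 and 7 of DG Synpo+/+, and 7 and 4 of DG Synpo-/-. In a second experiment of 24 libraries, synaptopodin was immunoprecipitated (coIP) from lysates of 6 pooled cultures, and RNA of the coIP and of the input lysate was sequenced. Here 5 control and 5 ECL preparations were Synpo+/+ and 2 preparations were Synpo-/-, without lesion information in their labels.

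Total counts were 14055930 to 46043990 (median 22354491) in regional libraries and 11601154 to 53682143 in the coIP experiment, and none of the 130 pairs of libraries within a group was a duplicate. Values are given as CPM, read counts scaled by library size with TMM factors. Synpo, which the mutation targets, was not lower in the mutant line's libraries: its mean was 22.5 to 35.4 CPM in the 4 Synpo+/+ regional groups and 38.2 to 51.8 CPM in the 4 groups labelled Synpo-/-, counted over all exons. Genotypes are therefore given by label, and the direction of any genotype difference rests on the labels. One library stood apart. Replicate 5 of DG Synpo+/+ ECL had 12.7 CPM of the granule cell gene Prox1, below the 38.97 CPM of the highest CA3 library. Both Prox1 values are scaled by library size alone, without TMM factors. Summed over 7 CA3 pyramidal cell markers, replicate 5 had 644 CPM. The changes of Il6st, Stat3 and Osmr in this group and the count of STAT3 targets are also given without replicate 5. Other results that include it, among them the Lifr change and the interactions, have no separate value without it. All 4 DG Synpo+/+ controls, but 4 of the 7 ECL libraries, held more Xist than Y-linked counts.

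Gene positions (GRCm38) and lengths of the merged exons came from the annotation deposited with the counts. Cntf (ENSMUSG00000079415.2) lies on the minus strand of chromosome 19 from 12763660 to 12765632, and 78.9% of its 1073 exonic bases are shared with Zfp91 on the same strand, so that its few counts are uncertain. Il6st (ENSMUSG00000021756.12) lies on the plus strand of chromosome 13 from 112464070 to 112510086. Stat3 (ENSMUSG00000004040.16) lies on the minus strand of chromosome 11 from 100885098 to 100939540. Socs3 (ENSMUSG00000053113.3) lies on the minus strand of the same chromosome from 117966079 to 117970047. Il6ra (ENSMUSG00000027947.11) lies on the minus strand of chromosome 3 from 89864059 to 89913196, and 2.8% of its exonic bases are shared with an antisense gene. Osmr (chromosome 15, 6813577 to 6874969, minus) and Lifr (chromosome 15, 7090614 to 7197489, plus) are neighbours. Lif (chromosome 11, 4257557 to 4272514, plus) and Cntfr (chromosome 4, 41657498 to 41697089, minus) complete the set.

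The promoters of the 3 members that were called after lesion in at least 1 comparison, and of the feedback inhibitor, are shown because STAT3 is known to bind the palindrome TTCNNNGAA and the genes differ in whether these letters stand just before the start. Bases come from RefSeq (GRCm38.p6), 5′ to 3′ on the gene's strand, from base -250 before the annotated start to base -1. Socs3 has several starts: its window is counted from the RefSeq start, which lies inside the span of the deposited gene, and is shown from base -250 to base -86, the stretch before an exon of the deposited annotation. That stretch is intronic in the longest deposited transcript. The windows are chr13:112463820-112464069 (plus) for Il6st, chr3:89913197-89913446 (minus) for Il6ra, chr11:100939541-100939790 (minus) for Stat3 and chr11:117969452-117969616 (minus) for Socs3. Capitals mark a match to TTCNNNGAA.
Il6st: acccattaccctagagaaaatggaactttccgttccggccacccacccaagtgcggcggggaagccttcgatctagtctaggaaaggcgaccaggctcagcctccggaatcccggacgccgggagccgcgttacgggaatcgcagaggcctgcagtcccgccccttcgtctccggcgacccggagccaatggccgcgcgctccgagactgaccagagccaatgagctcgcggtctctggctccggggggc
Il6ra: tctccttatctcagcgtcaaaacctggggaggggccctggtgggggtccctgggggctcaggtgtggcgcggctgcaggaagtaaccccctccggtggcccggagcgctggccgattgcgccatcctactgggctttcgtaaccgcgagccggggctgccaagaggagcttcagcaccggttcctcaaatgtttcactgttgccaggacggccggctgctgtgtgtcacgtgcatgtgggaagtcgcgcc
Stat3: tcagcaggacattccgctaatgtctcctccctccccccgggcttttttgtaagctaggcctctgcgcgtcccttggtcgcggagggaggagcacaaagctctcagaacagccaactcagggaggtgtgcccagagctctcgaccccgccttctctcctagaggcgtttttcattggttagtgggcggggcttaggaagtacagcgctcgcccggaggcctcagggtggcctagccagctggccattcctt
Socs3: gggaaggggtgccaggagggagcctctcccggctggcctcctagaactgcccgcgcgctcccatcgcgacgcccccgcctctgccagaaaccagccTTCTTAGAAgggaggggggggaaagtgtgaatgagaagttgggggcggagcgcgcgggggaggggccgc

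Among these windows Socs3 held the single match, TTCTTAGAA at bases -154 to -146. The palindrome reads the same on both strands. It occurred in 8.3% of all 32851 RefSeq windows of 250 bases before to 50 after a start. Among the members it occurred in 1 of 15 windows of the 9 genes (6.67%), and among STAT3 target genes in 7 of 24 windows (29.2%). Those 24 windows belong to the 20 of 24 listed target genes for which a window was found. The target genes with a match were Bcl6, Fgl2, Gfap, Icam1, Steap4 and Tnfrsf1a. The stricter form TTCCNGGAA, which is contained in it, occurred in 1.15% of all windows and in none of the members'. A match of letters is not evidence of binding.

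Per exonic length, Stat3, Il6st, Lifr and Osmr were the abundant members, and their order differed between regions. Median levels over the 39 regional libraries were 6.93 CPM per kb for Stat3, 4.50 for Il6st, 3.93 for Lifr, 3.91 for Osmr, 1.06 for Socs3, 0.563 for Il6ra, 0.331 for Lif, 0.290 for Cntfr and 0.0881 for Cntf. Lifr (2.71 to 6.82 CPM per kb) and Osmr (2.57 to 5.34) overlapped over both regions, and both overlapped Il6st (3.37 to 8.15) and Stat3 (3.88 to 10.8). Within CA3, however, Lifr (4.71 CPM per kb or more) lay above Osmr (4.59 or less) in every library, and its group means of 5.22 to 6.32 exceeded those of Il6st in all 4 groups. The 4 abundant genes were separated from Socs3, whose highest library had 1.62 CPM per kb. Il6ra (0.268 to 1.11) overlapped Socs3 (from 0.572) and also Lif and Cntfr, which reached 0.682 and 0.628. The Cntf value is taken over all its exonic bases, 78.9% of them shared with Zfp91, and may be too low.

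The ligands had few counts. Cntf had 0 to 9 reads per library, with 5 of 39 libraries at 0. Scaled by library size alone, 3 reads correspond to 0.0652 CPM in the deepest and 0.213 CPM in the shallowest library. Because 78.9% of its exonic bases are shared with Zfp91, this low count does not show that Cntf was little expressed. Lif had 8 to 71 reads (0.404 to 2.97 CPM). Of the other ligands of the family, Il6 had 0 to 15 reads, Il11 0 to 20, Osm 1 to 25 and Ctf2 0 to 24, and Il27 was at 0 in 18 of 39 libraries. Clcf1, a ligand of the Cntfr complex, had 20 to 92 reads, and Ctf1 had 12 to 77. With these counts and the spread between replicates, a small change of a ligand could have been missed. Lif, which sustains stem cells and acts as an injury cytokine, did not pass the test after lesion in any regional group, with log2 fold changes of -0.64 (SE 0.377) in CA3 Synpo+/+, -0.12 (SE 0.366) in CA3 Synpo-/-, -0.23 (SE 0.310) in DG Synpo+/+ and -0.12 (SE 0.288) in DG Synpo-/-. Cntfr, the GPI-anchored receptor for Cntf, had 6 to 35 reads, and its log2 fold changes were -0.39 to -0.03, each within its SE of 0.336 to 0.535.

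The first comparison asked which members differed between lesioned and control tissue in the denervated DG. Il6st, Stat3 and Il6ra rose in Synpo+/+ DG, and Il6st and Il6ra rose in DG labelled Synpo-/-, by 1.37- to 1.68-fold. In Synpo+/+ these were 3 of 8 members tested, where 12.2% of all genes were called in either direction and 7.86% of all genes were higher. In DG labelled Synpo-/- they were 2 of 8, where 8.53% of all genes were called and 5.17% of all genes were higher (edgeR's quasi-likelihood test, Benjamini-Hochberg adjusted p under 0.05). The median log2 fold change of the 8 members was 0.31 and 0.24, against -0.0030 and 0.013 for all genes tested.

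Il6st had 41.4, 45.0, 48.5 and 51.5 CPM in the DG Synpo+/+ controls and 51.4 to 76.7 CPM (median 64.4) in the 7 ECL libraries. The groups touched only at ECL replicate 5, the library with little Prox1, since the other 6 had 60.5 CPM or more. The log2 fold change was 0.46 (SE 0.116, edgeR adjusted p = 0.0227), and 0.49 (adjusted p = 0.00324) without replicate 5. In DG labelled Synpo-/-, Il6st had 40.4 to 56.4 CPM (median 48.8) in 7 controls and 63.2, 66.8, 78.5 and 90.5 CPM in the 4 ECL libraries. Here the groups did not overlap, which held for 4.26% of all genes in this direction, and the log2 fold change was 0.58 (SE 0.112, edgeR adjusted p = 0.00403). No single library decided this call. In Synpo+/+ the call was lost without control replicate 3 or 4 (adjusted p = 0.0928 and 0.0907) and among libraries with more Xist than Y-linked counts (adjusted p = 0.0630).

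Stat3 had 47.9, 49.1, 54.9 and 60.3 CPM in the DG Synpo+/+ controls and 66.0 to 101 CPM (median 69.5) after ECL. All 7 ECL libraries lay above the 4 controls, as did 5.98% of all genes. The log2 fold change was 0.50 (SE 0.127, edgeR adjusted p = 0.0224), and 0.45 without ECL replicate 5. The call was lost without control replicate 2, 3 or 4 (adjusted p from 0.0618 to 0.0860). In DG labelled Synpo-/-, Stat3 had 43.4 to 73.2 CPM (median 62.4) in controls and 63.9, 75.3, 77.4 and 103 CPM after ECL. These groups overlapped, and the difference of 0.36 (SE 0.134) did not pass the test (edgeR adjusted p = 0.114).

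Il6ra, the receptor that confers the response to interleukin-6, was far less abundant than Il6st. It had 2.32, 3.06, 3.43 and 4.08 CPM in DG Synpo+/+ controls and 3.91 to 6.87 CPM (median 5.16) after ECL, with a log2 fold change of 0.64 (SE 0.201, edgeR adjusted p = 0.0491). This value stood at the threshold: the call was lost when any 1 of the 11 libraries was left out (adjusted p from 0.0527 to 0.152). In DG labelled Synpo-/- it had 2.46 to 4.41 CPM (median 3.63) in controls and 3.75, 5.02, 7.15 and 7.26 CPM after ECL, a log2 fold change of 0.75 (SE 0.211, edgeR adjusted p = 0.0351). One ECL library lay within the control range. This call was lost without control replicate 2, 5 or 6 or ECL replicate 1, 2 or 3 (adjusted p from 0.0518 to 0.133).

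Osmr and Lifr, the partner chains of gp130 in the oncostatin M and Lif receptors, did not pass the test in DG. Osmr had 36.01, 37.8, 44.4 and 49.1 CPM in Synpo+/+ controls and 48.8 to 61.3 CPM (median 52.7) after ECL, with a log2 fold change of 0.35 (SE 0.114, edgeR adjusted p = 0.0578). Without ECL replicate 5 it passed (adjusted p = 0.0328). In DG labelled Synpo-/- the Osmr log2 fold change was 0.28 (SE 0.109, edgeR adjusted p = 0.131). Lifr had log2 fold changes of 0.28 (SE 0.138, edgeR adjusted p = 0.172) and 0.21 (SE 0.0954, edgeR adjusted p = 0.209). In Synpo+/+ ECL, Lifr was 62.9 CPM in replicate 5 and 38.8 to 42.4 CPM in the other 6 libraries.

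Socs3, the feedback inhibitor and itself a STAT3 target, was low and did not pass the test in any group. It had 2.84, 2.88, 2.98 and 3.01 CPM in DG Synpo+/+ controls and 2.44 to 4.01 CPM after ECL. Of the 7 ECL libraries, 6 had 3.51 to 4.01 CPM and lay above all 4 controls. Replicate 7, at 2.44 CPM, lay below all controls, and a fit without it is not given. In DG labelled Synpo-/- the means were 3.16 ± 0.592 (SD, n = 7) in controls and 3.17 ± 0.797 (SD, n = 4) after ECL. The log2 fold changes were 0.22 (SE 0.175) and -0.03 (SE 0.193), from 24 to 133 reads per regional library.

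**Figure D1:**
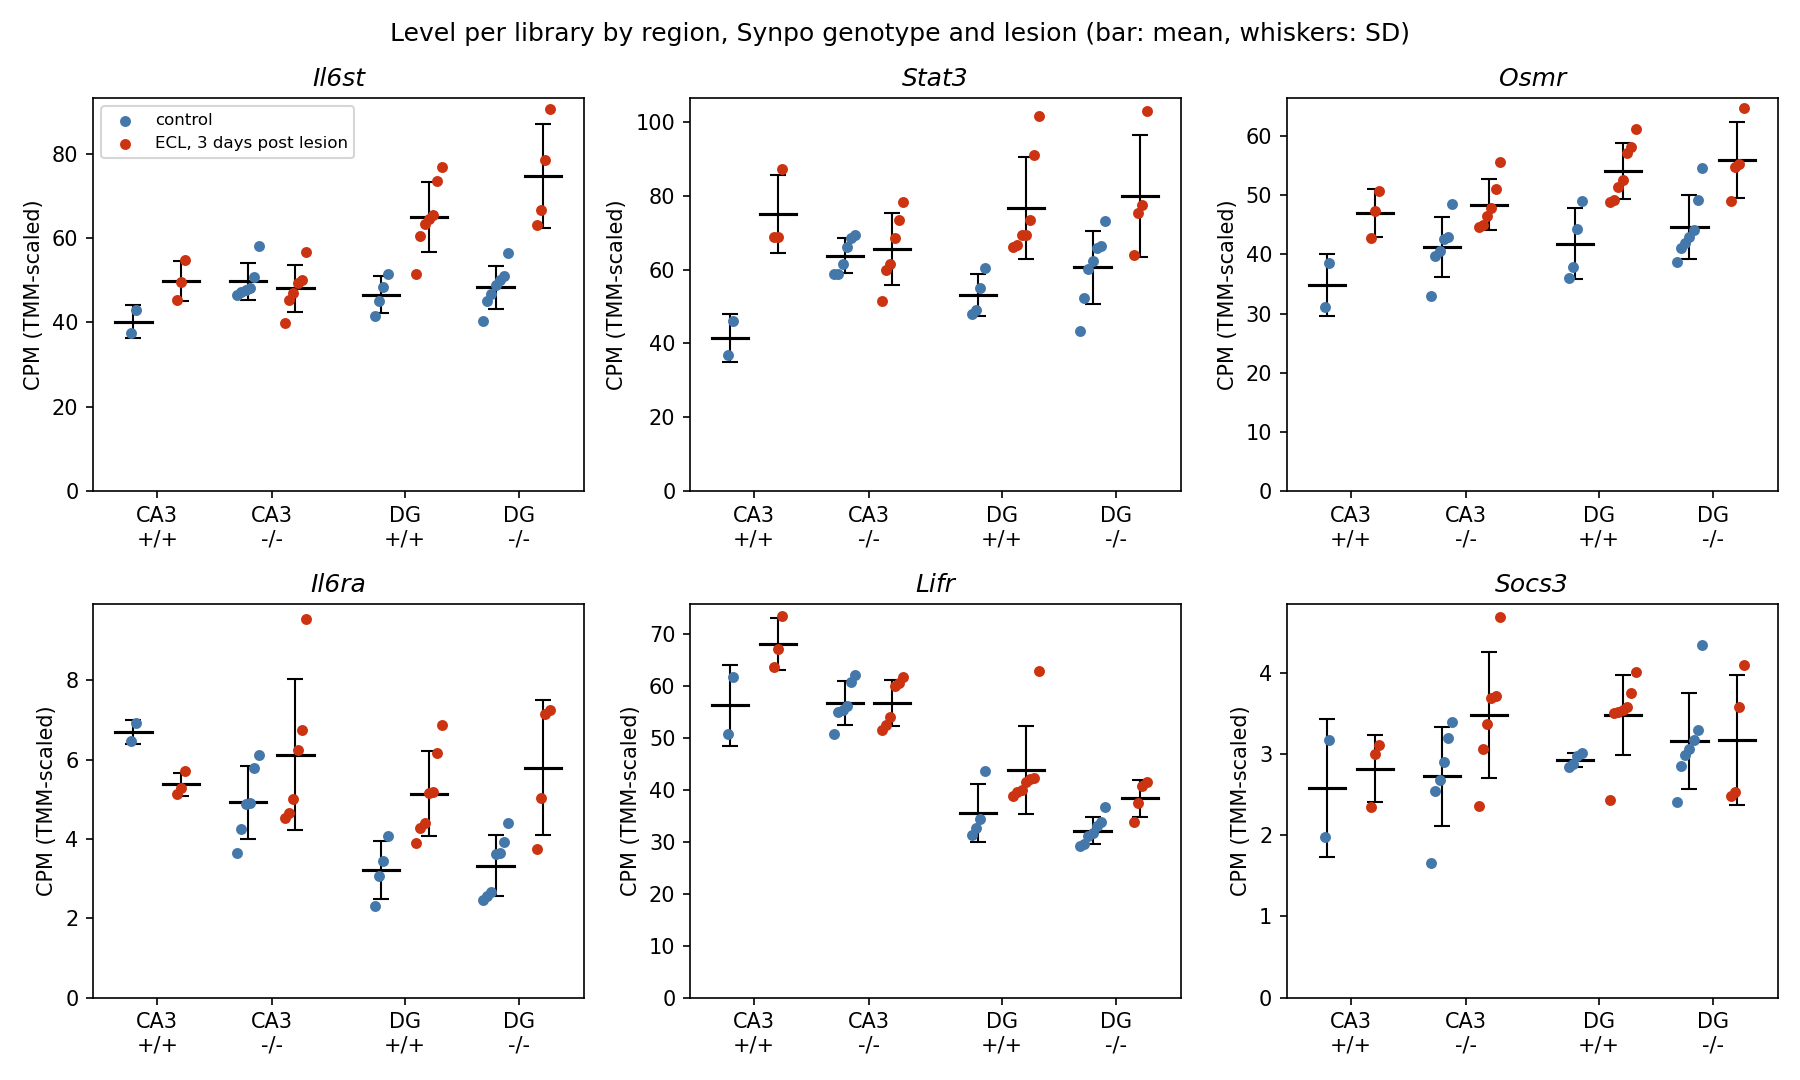
CPM (TMM-scaled) of 6 members in every regional library, control in blue and ECL in red, with bars for group means and whiskers for SD. Il6st in DG labelled Synpo-/- separates fully, with 63.2 to 90.5 CPM after ECL against 40.4 to 56.4 CPM in controls, while Socs3 groups overlap.

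In CA3, whose distal dendrites also receive perforant path input, Stat3 alone was called, and in Synpo+/+ alone. It was 1 of 8 members tested, where 1.78% of all genes were called and 1.5% were higher. Stat3 had 36.9 and 46.0 CPM in the 2 controls and 68.9, 68.9 and 87.3 CPM in the 3 ECL libraries. The log2 fold change was 0.75 (SE 0.148, edgeR adjusted p = 0.0409). The groups did not overlap, which with 2 and 3 libraries held for 23.1% of all genes. Without control replicate 1 or ECL replicate 1, 2 or 3 the call was lost (adjusted p from 0.0666 to 0.184). In the 6 CA3 controls labelled Synpo-/-, Stat3 had 58.7 to 69.3 CPM (median 63.7), and 51.6 to 78.3 CPM (median 65.0) after ECL. The ECL group enclosed the controls, with a log2 fold change of 0.04 (SE 0.0924).

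None of the 8 members passed in CA3 labelled Synpo-/-, where 0.077% of all genes were called (edgeR). At an unadjusted p under 0.05 the count was 1, Osmr, and DESeq2 called none. Il6st had log2 fold changes of 0.21 (SE 0.138) in CA3 Synpo+/+ and -0.04 (SE 0.0968) in CA3 labelled Synpo-/-. For Il6ra they were -0.42 (SE 0.200) and 0.33 (SE 0.198). Il6ra had 6.47 and 6.91 CPM in the Synpo+/+ controls of CA3 and 5.13, 5.29 and 5.704 CPM after ECL, a direction opposite to that in DG. Osmr was the only member with a positive value in each of the 4 lesion comparisons and an unadjusted p under 0.05 in each (edgeR, 0.00816 to 0.0381), of 0.24 to 0.35 on the log2 scale, and it passed the adjusted threshold in none.

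**Figure D2:**
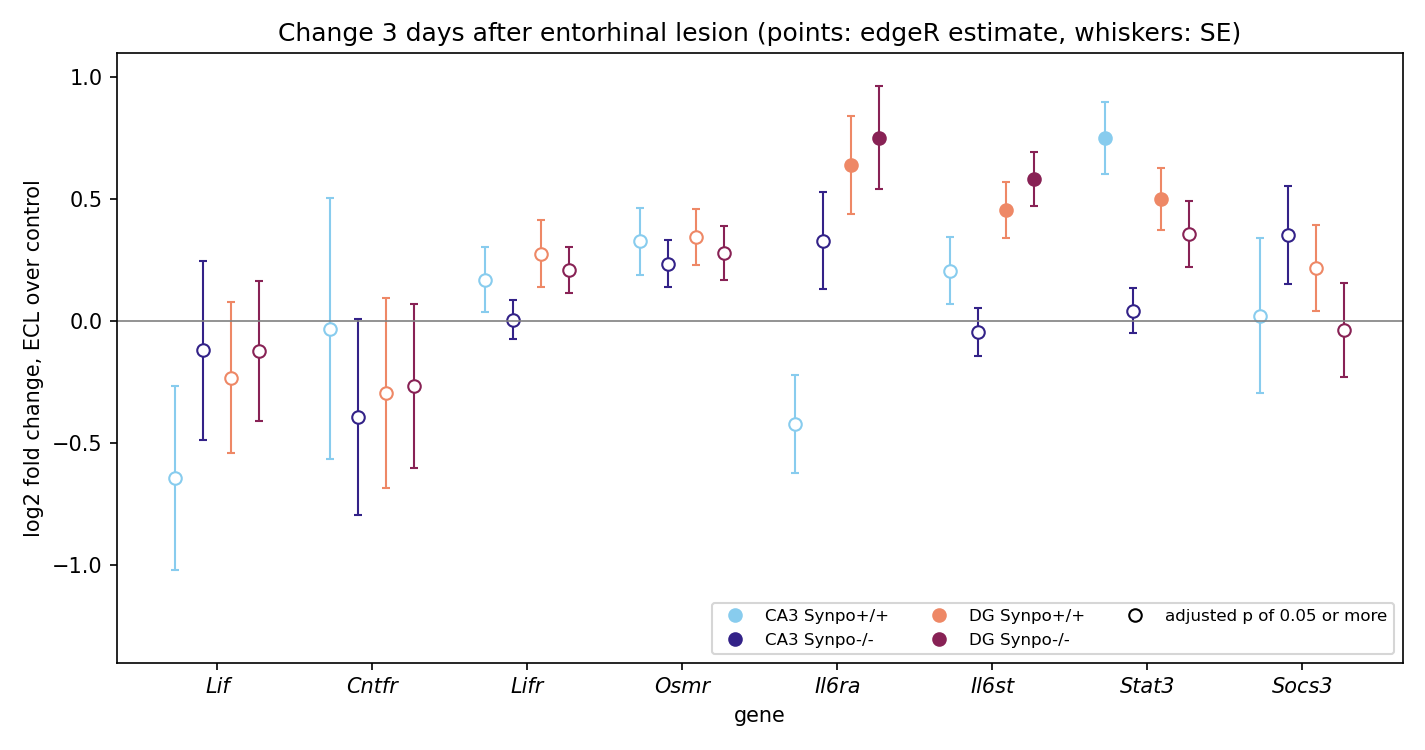
Log2 fold change of ECL over control for the 8 members tested, in the 4 combinations of region and genotype label; whiskers are SE and filled points have an edgeR adjusted p under 0.05. Il6st and Il6ra are filled in both DG comparisons and Stat3 in both Synpo+/+ comparisons.

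Whether these responses differed between genotype labels or regions was tested directly. In CA3, the Stat3 response in libraries labelled Synpo-/- was lower than in Synpo+/+ by -0.74 on the log2 scale (SE 0.197, unadjusted p = 0.00115 across genes), and did not pass after adjustment (edgeR adjusted p = 0.142, where 0% of all genes were called). DESeq2 called it (-0.72, DESeq2 adjusted p = 0.0327), as it did 379 of 51653 genes. The control levels also stood apart, since the 2 Synpo+/+ controls lay below all 6 of the other label, a separation found for 9.66% of all genes. That difference was 0.56 (SE 0.128, edgeR adjusted p = 0.104). The interaction shares these controls. In DG, edgeR and DESeq2 called no member between genotype labels, in response (0.00381% of all genes called by edgeR) or in control level (0.0166%), and 0 had an unadjusted p under 0.05 in either. For Il6st the DG responses differed by 0.09 (SE 0.164) and for Stat3 by -0.18 (SE 0.198).

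Between regions, the Il6st response was larger in DG than in CA3 among libraries labelled Synpo-/- by 0.61 on the log2 scale (SE 0.153, edgeR adjusted p = 0.0436). It was 1 of 8 members, where 1.12% of all genes were called, 0.877% higher. The call was lost without any of 16 of the 23 libraries (adjusted p from 0.0511 to 0.137), with no filter on low counts (adjusted p = 0.0721) and with a replicate block (adjusted p = 0.0763). In Synpo+/+ none of the members passed, and 0% of all genes were called. There the Il6ra response was larger in DG by 1.01 (SE 0.310, unadjusted p = 0.00385, edgeR adjusted p = 0.997). At an unadjusted p under 0.05 Il6ra was the single member, and no other tool gave a call.

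Without lesion, 2 of the receptor subunits differed between regions in Synpo+/+ and 1 in the other label. Lifr and Il6ra were lower in DG than in CA3, 2 of 8 members in Synpo+/+, where 5.39% of all genes were called and 2.75% were lower. Lifr had 50.7 and 61.8 CPM in CA3 and 31.2, 32.6, 34.5 and 43.6 CPM in DG of Synpo+/+ controls, a log2 difference of -0.65 (SE 0.161, edgeR adjusted p = 0.0294). Among controls labelled Synpo-/- it had 50.7 to 62.2 CPM (median 55.7) in CA3 and 29.2 to 36.7 CPM (median 31.7) in DG. These 6 and 7 libraries did not overlap, as 4.92% of all genes in this direction, and the difference was -0.71 (SE 0.0774, edgeR adjusted p = 1.14e-06). It was 1 of 8 members, where 25.5% of all genes were called and 12.5% were lower, the same share as among the members. Il6ra was at 6.47 and 6.91 CPM in CA3 against at most 4.08 CPM in DG of Synpo+/+ (-1.04, SE 0.257, edgeR adjusted p = 0.0294), and the difference was -0.46 (SE 0.176, edgeR adjusted p = 0.0609) in the other label. In Synpo+/+, each of these calls was lost without CA3 replicate 1 or 2 or DG replicate 1 or 3 (adjusted p from 0.0501 to 0.248). In controls labelled Synpo-/-, Il6ra passed without CA3 replicate 2 or DG replicate 7 (adjusted p = 0.0378 and 0.0333). No member differed between genotype labels in control CA3 by edgeR (0.00413% of all genes called), while DESeq2 called Stat3 among 845 of 49945 genes, and 2 members, Stat3 and Il6ra, had an unadjusted p under 0.05.

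Over the 39 regional libraries the log2 CPM of Lifr correlated with the summed CA3 pyramidal cell markers (Pearson's r = 0.919) and inversely with the granule cell markers (r = -0.866). It also correlated with the oligodendrocyte markers (r = 0.726). These were called lower in DG than in CA3 controls for 5 of 8 genes in Synpo+/+ and 8 of 8 in the other label. Of all genes, 2.75% and 12.5% were called lower there. The genes most like Lifr were Akap13 (r = 0.934), Raver2 (0.934) and A330070K13Rik (0.932). Il6st was most like Daam2 (r = 0.928), Ahnak (0.902) and Ntrk2 (0.893), and Stat3 most like Anxa6, Tsc22d4 (both 0.878) and Crip2 (0.876). For Osmr the first was the interleukin-1 receptor gene Il1r1 (r = 0.800), for Il6ra Lhfp (0.809) and for Socs3 the metallothionein gene Mt2 (0.621). Among members, Il6st correlated with Osmr (r = 0.705) and with Stat3 (0.636). Within groups these values fell to 0.374 and 0.294. The correlations are descriptions over 39 libraries that share region, lesion and depth, and carry no test.

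Targets of STAT3 were counted next, on a list of 24 genes chosen by name with earlier results of these data known. In DG, 13 of 24 rose in Synpo+/+ and 13 of 24 in libraries labelled Synpo-/-, with none lower. In these, 11 genes were shared and 15 were called in either. Median log2 fold changes were 0.67 and 0.57. The counts stand against 7.86% and 5.17% of all genes called higher. In CA3, 1 of the targets rose in Synpo+/+ and 2 in the other label, where 1.5% and 0.053% of all genes were called higher, with medians of 0.22 and 0.29. These CA3 counts depended on single libraries. In Synpo+/+ the count was 0 without control replicate 1 or ECL replicate 1 or 2, 2 without ECL replicate 3 and 5 without control replicate 2, and 0 to 7 under other settings. In the other label it was 0 without control replicate 1, 2 or 4 or ECL replicate 3, 1 without control replicate 3 or ECL replicate 1, 2 or 5, and 1 to 8 under other settings. Without ECL replicate 5 of DG Synpo+/+ the count there was 15.

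Gfap, the intermediate filament of astrocytes, had 707 to 976 CPM in DG Synpo+/+ controls and 1981 to 2964 CPM after ECL. Its log2 fold change was 1.44 (edgeR adjusted p = 2.92e-05) there and 1.30 (edgeR adjusted p = 8.67e-06) in the other label. Vim, a second filament of reactive astrocytes, rose by 1.05 and 1.18. A2m, the protease inhibitor alpha-2-macroglobulin, was the one target called in all 4 comparisons, with 1.25 and 1.31 in DG and 0.91 (edgeR adjusted p = 0.0269) and 0.61 (edgeR adjusted p = 0.0249) in CA3 of Synpo+/+ and of the other label. Serpina3n, a serine protease inhibitor, rose by 1.56 and 1.21 in DG, and Timp1, an inhibitor of metalloproteinases, by 1.59 and 1.05. The immediate early gene Fos, which also responds to neuronal activity, rose by 1.61 and 2.11. The metalloreductase gene Steap4 rose by 1.79 and 2.02 in DG and by 1.36 (edgeR adjusted p = 0.0308) in CA3 labelled Synpo-/-. Socs3, with 0.22 and -0.03, stood below the median of the list in both DG comparisons.

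Of 17 kinases, other STATs and inhibitors of the pathway, Ptpn6, a phosphatase of blood-lineage cells, rose in DG by 1.01 (edgeR adjusted p = 0.00956) in Synpo+/+ and by 0.70 (edgeR adjusted p = 0.0242) in the other label. It was 1 of 17 in each, which is near the 7.86% and 5.17% of all genes called higher. Ptprt, a receptor phosphatase for STAT3, fell by 0.27 (edgeR adjusted p = 0.0389) in DG labelled Synpo-/-. None of the 17 was called in CA3.

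**Figure D3:**
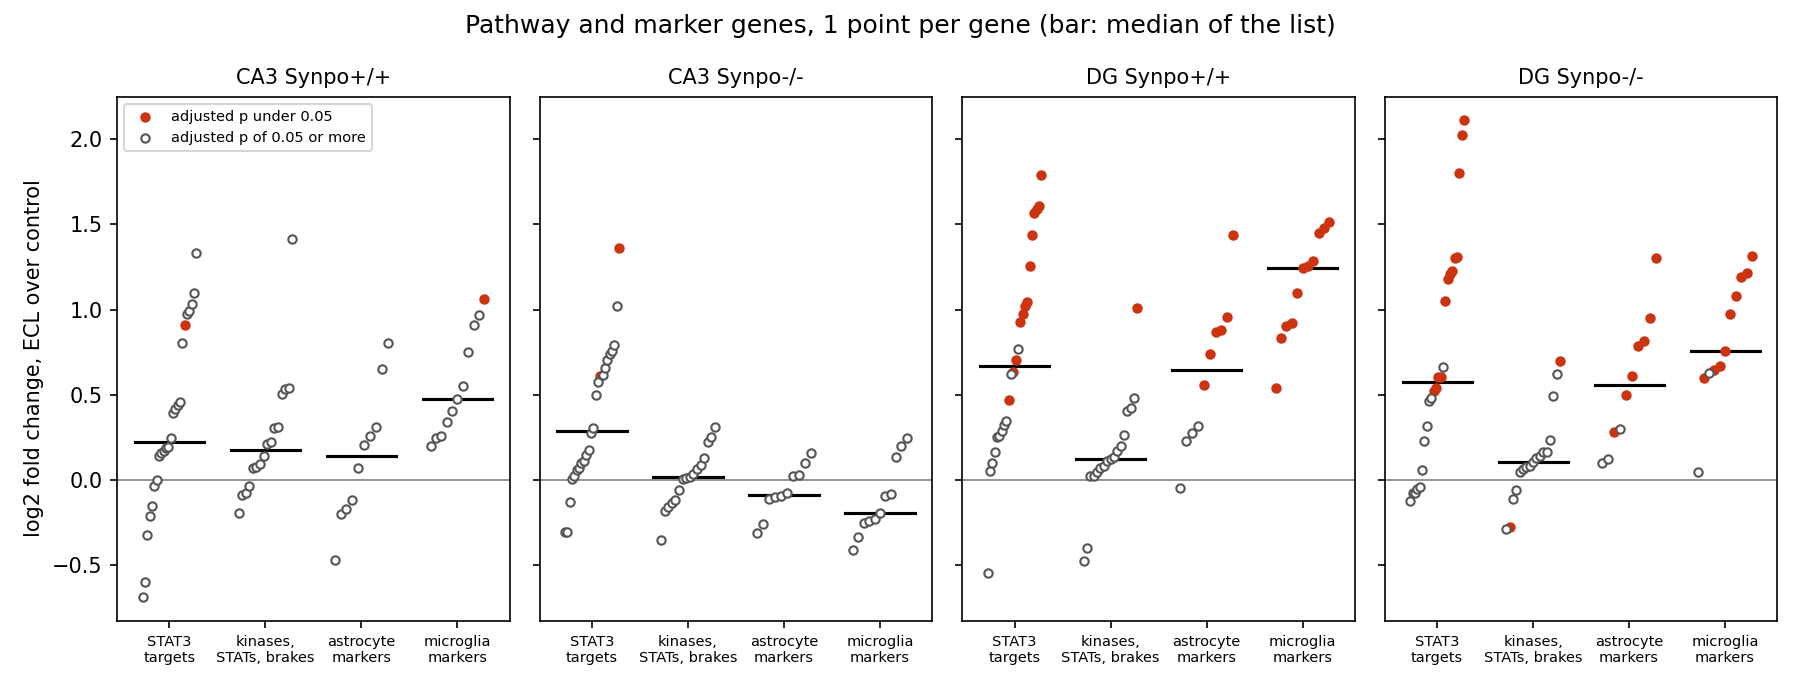
Log2 fold change of ECL over control for each tested gene of 4 lists (STAT3 targets, kinases with STATs and brakes, astrocyte markers, microglia markers) in the 4 lesion comparisons; red points were called and bars are list medians. The STAT3 targets, astrocyte and microglia medians lie above 0 in DG, with microglia at 1.25 and 0.76, and nearer to 0 in CA3.

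Markers of glia moved in the same comparisons. In DG, 6 of 10 astrocyte markers rose in Synpo+/+ and 7 of 10 in the other label, and 11 and 9 of 11 microglia markers. Of all genes, 7.86% and 5.17% were called higher there. In CA3 the counts were 0 and 0 for astrocytes and 1 and 0 for microglia, where 1.5% and 0.053% of all genes were called higher. In CA3 Synpo+/+ they were 3 and 6 without control replicate 2, and the microglia count was 0 without any of the other 4 libraries. DESeq2 called 2 astrocyte and 3 microglia markers there, and none of either in the other label. Summed astrocyte markers were 4721 to 5462 CPM in DG Synpo+/+ controls and 7280 to 9354 CPM after ECL, and 5039 to 5930 against 7718 to 9874 CPM in the other label. In CA3 they were 4995 to 6192 against 6704 to 7974 CPM in Synpo+/+, where Stat3 rose, and 6249 to 7267 against 4953 to 7475 CPM in the other label. Summed microglia markers were 477 to 649 CPM in DG Synpo+/+ controls and 1198 to 1536 CPM after ECL, and 566 to 1235 against 1226 to 1686 CPM in the other label. In CA3 they were 507 to 859 against 1041 to 1397 CPM in Synpo+/+, with all 11 markers at a positive log2 fold change, and 725 to 1571 against 675 to 1169 CPM in the other label. No gene of either list was at 0 in any group. Over the 39 libraries Stat3 correlated with the astrocyte sum (r = 0.817) and the microglia sum (0.734), and Il6st did so with 0.749 and 0.609, while Socs3 had 0.256 and 0.125. The part of these cell types in the members' changes was not tested, and in tissue more cells of a type and more RNA per cell cannot be told apart. Gfap is on both the target and the astrocyte list.

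Oligodendrocyte markers were lower in CA3 labelled Synpo-/- for 2 of 8 genes, where 0.077% of all genes were called in either direction. In DG they were higher for 1 of 8 in each label, where 7.86% (Synpo+/+) and 5.17% of all genes were called higher. None of the 7 granule cell or 7 CA3 pyramidal cell markers was called after lesion. The remaining cell types (CA1 neurons, endothelium, fibroblasts, interneurons, Schwann cells and T cells) had 29 marker genes. Of these, 26 were tested in DG Synpo+/+ and 25 in each of the other lesion comparisons. In each DG comparison 2 rose and 2 fell, where 12.2% (Synpo+/+) and 8.53% of all genes were called in either direction. None was called in CA3.

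The inputs of the coIP experiment gave a separate measurement of the lesion, on whole-culture lysates. None of 8 members passed between 5 ECL and 5 control inputs of Synpo+/+ (edgeR), where 5.61% of all genes were called. At an unadjusted p under 0.05 the count was 1, Lif (-0.67, SE 0.296, edgeR adjusted p = 0.222), and DESeq2 gave no call. Stat3 had 93.5, 136, 139, 140.3 and 142 CPM in control inputs and 111, 114, 114, 122 and 134 CPM after ECL, a log2 fold change of -0.13 (SE 0.110). Il6st changed by 0.02 (SE 0.110). In the same inputs Ptpn6 rose by 0.64 (edgeR adjusted p = 0.0315), Vim by 0.55 and Gfap by 0.51. These are single genes of their lists. Called higher were 2 of 16 kinases, STATs and inhibitors tested, 2 of 23 STAT3 targets, 1 of 10 astrocyte and 4 of 11 microglia markers, and none was called lower. Of all genes, 5.61% were called in either direction.

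The last comparison asked which transcripts were higher in the synaptopodin coIP than in the input, before any correction for background. In Synpo+/+ controls Stat3, Il6st, Il6ra and Lif were higher in the coIP than in the input, 4 of 8 members, where 55% of all genes were called and 29.6% were higher, so that enrichment was common among all genes. Stat3 had 93.5, 136, 139, 140.3 and 142 CPM in the inputs of preparations 1 to 5 and 163, 187, 198, 231 and 193 CPM in their coIP samples. All 5 coIP samples lay above all inputs, and the log2 fold change was 0.60 (SE 0.122, edgeR adjusted p = 0.000771). Il6st had 42.1, 56.1, 49.4, 57.6 and 60.3 CPM in inputs and 65.4, 74.3, 66.2, 77.7 and 72.1 CPM in coIP samples (0.44, SE 0.104, edgeR adjusted p = 0.00237). Il6ra, at 2.29 to 5.01 CPM in inputs and 5.87 to 9.42 CPM in coIP samples, had the largest value of the 8 members (1.04, SE 0.218, edgeR adjusted p = 0.000985). These 3 genes did not overlap between fractions, as 17.1% of all genes in this direction. Lif overlapped, at 1.99 to 3.95 and 2.46 to 6.198 CPM (0.68, SE 0.260, edgeR adjusted p = 0.0382), and its call was lost without input replicate 1, 2, 3 or 4 or coIP replicate 3, 4 or 5 (adjusted p from 0.0561 to 0.132).

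With the preparation as a block, since coIP and input of a number come from the same lysate, 6 members were called, adding Lifr (adjusted p = 0.00437) and Socs3 (adjusted p = 0.0198). Without the block Lifr passed when coIP replicate 1 was left out (adjusted p = 0.0328) and Socs3 when input replicate 4 was (adjusted p = 0.0313). With the trend on gene length removed, Il6st (0.05, adjusted p = 0.703) and Stat3 (0.27, adjusted p = 0.0613) no longer passed and Osmr turned from 0.10 to -0.33 (adjusted p = 0.0419), so that 4 members were called again: Lif, Il6ra and Socs3 higher and Osmr lower.

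The same antibody was used on lysates labelled Synpo-/-, which give the background of the pull-down. The libraries are numbered here by preparation, since a second replicate number in the labels of the inputs runs the other way. There Stat3 had 132 and 139 CPM in inputs and 189 and 197 CPM in coIP samples (0.48, SE 0.129, edgeR adjusted p = 0.0145), and Il6ra 5.29 and 5.36 against 8.74 and 9.02 CPM (0.70, SE 0.211, edgeR adjusted p = 0.0238). These were 2 of 9 members tested, where 31.4% of all genes were called and 15% were higher. Il6st had 0.24 (SE 0.161, edgeR adjusted p = 0.279) and Lif 0.81 (SE 0.327, edgeR adjusted p = 0.0775). In Synpo+/+ controls the values of Stat3, Il6ra and Il6st were larger (0.60, 1.04 and 0.44) and that of Lif was smaller (0.68). The paper counted a transcript as enriched only after subtracting the log2 fold change of synaptopodin-deficient cultures and requiring a minimum remainder. That correction was not applied here, and the difference between the genotype labels was not tested. With 2 libraries per fraction, the Il6ra call was lost without either input or without coIP replicate 1, and the Stat3 call without either input (adjusted p from 0.0538 to 0.121 for both genes). Lif passed without input replicate 1 or coIP replicate 2 (adjusted p = 0.0169 and 0.0217).

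**Figure D4:**
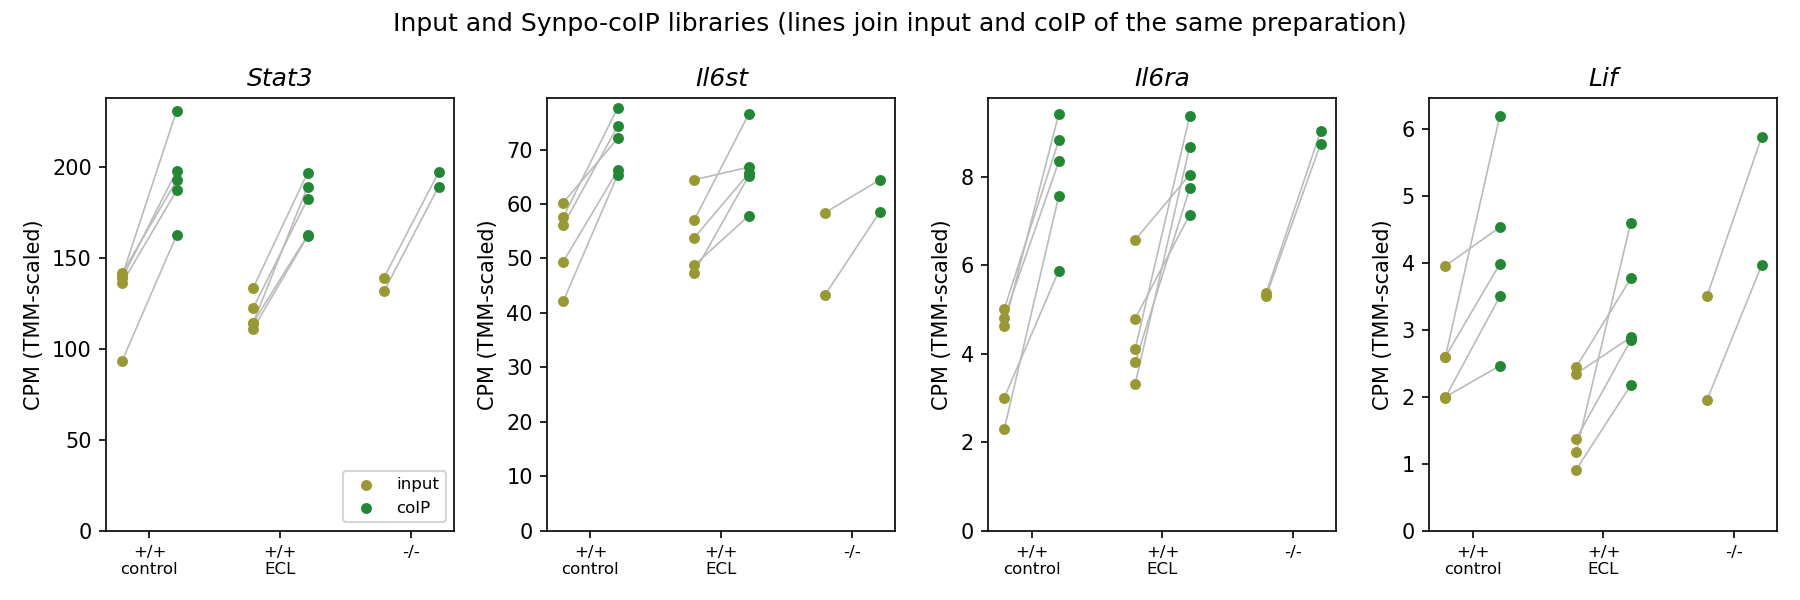
CPM (TMM-scaled) of Stat3, Il6st, Il6ra and Lif in input and coIP libraries, with a line joining the fractions of each preparation, for Synpo+/+ control, Synpo+/+ ECL and Synpo-/- preparations. In the 5 Synpo+/+ control preparations Stat3 goes from at most 142 CPM in input to at least 163 CPM in coIP, and in the 2 labelled Synpo-/- from at most 139 to at least 189 CPM.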

How the data were processed

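Per the labels and the methods, the authors used cutadapt 3.5 for trimming, STAR 2.7.8a for mapping to mm10 and featureCounts 2.0.1 for unstranded counts over GENCODE exons. Libraries were amplified without molecular identifiers. Raw counts were deposited for 55291 symbols, of which 107 stand for more than 1 gene. No column was left unused. Samples were grouped by their labels. Nothing says whether regional libraries of a group came from different animals, so p-values measure the spread between these cultures.

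Each comparison was fitted on all genes with edgeR 4.0.16 in R 4.3.3 (TMM, filterByExpr, quasi-likelihood test, Benjamini-Hochberg), and an adjusted p under 0.05 was called. SE is the log2 fold change over the root of F. The fits were also run on simulated counts, and the outcome is not given here. DESeq2 1.42.0 was an alternative. All members were named. List genes were named from those called, roughly by smallest p, and some called genes with a small p were not named. Likeness was Pearson's r of log2 CPM (prior count 2) among genes with a mean CPM over 5. Members and lists were chosen with earlier results of these data known. CoIP and input share a lysate: in Synpo+/+ controls, paired deviations correlated with r from 0.142 to 0.336 in 5 of 5 pairs. Trends on length were lowess fits (span 0.3). Some items of the lists are not reported here.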

Additional observations from a re-analysis of the deposited data

Results flagged for a closer look

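Over 8 members in 10 groups of 4 to 10 libraries (80 sets of values), 5 held 1 library far from the others by Dixon's criterion, and chance gives about 1 in 20. Lifr was 62.9 CPM in DG Synpo+/+ ECL replicate 5, the library with little Prox1, against 38.8 to 42.4 CPM in the other 6. Il6st was 58.2 CPM in CA3 Synpo-/- control replicate 3, against 46.5 to 50.7 CPM in the other 5. Socs3 was 2.44 CPM in DG Synpo+/+ ECL replicate 7, against 3.51 to 4.01 CPM. Stat3 was 93.5 CPM in Synpo+/+ control input replicate 1, against 136 to 142 CPM in the other 4. Socs3 was 2.45 CPM in Synpo+/+ ECL input replicate 2, against 3.02 to 3.25 CPM.

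The response of Il6st to lesion differed between regions in libraries labelled Synpo-/-, by 0.61 on the log2 scale (DG minus CA3, edgeR's interaction test). Leaving out CA3 control replicate 3, the high library named above, gave 0.54 (adjusted p = 0.0948).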

How the results depend on the processing

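Counts of members called were recomputed under 87 alternatives, of which 70 stayed within 1.5 times and 17 moved. A count that remained at 0 was scored as having stayed, and several comparisons had a main count of 0, so these totals overstate the stability of the calls. For lesion in CA3 Synpo+/+ the count of 1 became 0 with RLE size factors, with the length trend removed and with all 4 groups of the region in one fit, and was 0 to 1 with a library left out. For DG Synpo+/+ the count of 3 became 1 among libraries with more Xist than Y-linked counts and was 0 to 3 with a library left out, 0 without control replicate 3 or 4. For DG labelled Synpo-/- the count of 2 became 1 with the replicate block and with a mean normalized count over 300, and was 1 to 2 with a library left out. Genotype by lesion in CA3 went from 0 to 1 with DESeq2. Region by lesion in Synpo-/- went from 1 to 0 with no filter and with the replicate block (0 to 1 with a library left out). Region in control Synpo+/+ went from 2 to 0 with the block (0 to 2), and in control Synpo-/- from 1 to 2 with RLE and DESeq2 and to 3 with the block (1 to 2). Genotype in control CA3 went from 0 to 1 with no filter, DESeq2 and the block. CoIP over input went from 4 to 6 with the block in Synpo+/+ (3 to 5 with a library left out), and in Synpo-/- from 2 to 3 with the block or no filter and to 0 with the length trend removed (0 to 3). Causes were not tested. Changes of sign were counted only for a member called in a comparison by the main fit or under an alternative setting. Members called in neither, whose values were often near 0, did not enter. In these 419 tests of single members 2 reversed, both for coIP over input in Synpo+/+ controls with the length trend removed: Lifr (-0.12) and Osmr (-0.33). Removing that trend moved the median of all genes to -0.143 in CA3 Synpo+/+ and -0.144 in DG Synpo+/+, where 36.2% of the called genes were then higher. STAT3 targets called in DG Synpo+/+ numbered 8 with the length trend removed, and in DG Synpo-/- 7 with a mean normalized count over 300, both against 13. List counts by alternative were chosen after seeing the data. The labels do not say whether regional replicate numbers pair cultures. In the lesion comparisons r of deviations ran from -0.179 to 0.226. Between regions in control Synpo-/- it ran from -0.0371 to 0.481, over 0.1 in 3 of 6 pairs. Whether the block is the right model for the regional libraries, and so what a loss under it means, was not settled. Where a group kept 1 library, that library was assumed to vary like the other group. Depth limits the ligands, Cntfr, Il6ra and Socs3.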

Other observations

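Lesioned Synpo+/+ preparations of the coIP experiment entered no test of coIP over input. In their 5 inputs Stat3 had 111 to 134 CPM and in their 5 coIP samples 162 to 197 CPM. Il6ra had 3.31 to 6.57 CPM in inputs and 7.14 to 9.37 CPM in coIP samples. Lif had 0.910 to 2.44 and 2.17 to 4.602 CPM, and Il6st 47.4 to 64.5 and 57.8 to 76.5 CPM.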
